A study of Mus musculus with 6 samples.

Results

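Transcripts of 8 antioxidant enzymes were followed in mouse hematopoietic stem and progenitor cells with and without ING4: the glutathione peroxidases Gpx1, Gpx3, Gpx4, Gpx7 and Gpx8, the superoxide dismutases Sod1 and Sod2, and catalase (Cat). The genes were chosen by name as the enzymes that clear superoxide and peroxides, and they are 8 of the 49315 genes counted. All 8 were tested in the comparison of genotypes, among 31001 genes tested, and 6 of them, all but Gpx3 and Gpx8, reached 10 counts in each library. Gpx1, Gpx4 and Sod1 were called higher in the ING4-/- libraries and no enzyme was called lower, where 7.98% of all tested genes were called higher and 56.7% lower. Only Gpx1 was called with a background of the WT libraries subtracted, and none with the trend on exonic length removed above a minimum of 10 counts. Gpx1 made up most of the length-corrected signal of the family in every library.

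Bulk RNA sequencing covered 6 libraries, 1 for each of 3 populations in WT mice and in ING4-/- mice, which lack the chromatin-associated tumor suppressor ING4. The populations were long-term hematopoietic stem cells (LT-HSC, LSK CD48-CD34-CD150+), short-term hematopoietic stem cells (ST-HSC, LSK CD48-CD34+CD150+) and multipotent progenitors (MPP), where LSK marks lineage-depleted cells with Sca-1 and Kit on their surface. Adult C57BL/6 mice served as WT controls, the labels name no treatment of the mice, and each library came from the pooled marrow of 8 to 10 mice and about 1000 to 10000 sorted cells. With 1 library per genotype and population, the 3 populations stood in for replicates, and p-values describe the spread between these 3 populations rather than between animals. Marrow was pooled before the populations were sorted, so those of a genotype may come from the same mice.

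Superoxide that leaks from mitochondria or is made by NADPH oxidases is converted to hydrogen peroxide by superoxide dismutases, in the cytosol by the copper-zinc enzyme SOD1 and in the mitochondrial matrix by the manganese enzyme SOD2. Hydrogen peroxide is then removed by catalase in peroxisomes and by glutathione peroxidases, which oxidize glutathione: GPX1 is the abundant cytosolic and mitochondrial form, GPX3 is secreted into plasma, GPX4 reduces lipid hydroperoxides in membranes and protects cells from ferroptosis, and GPX7 and GPX8 reside in the endoplasmic reticulum, where protein folding releases peroxide. Quiescent hematopoietic stem cells are sensitive to reactive oxygen species, which drive them into cycle and exhaust them.

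The glutathione peroxidases differ in the residue that meets the peroxide, and the 39 bases of coding sequence around that codon are shown to separate the 2 kinds of enzyme among these genes. The codon is in capitals, read 5′ to 3′ on the coding strand from the GENCODE transcripts of GRCm38.
Gpx1: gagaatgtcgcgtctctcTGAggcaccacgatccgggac
Gpx3: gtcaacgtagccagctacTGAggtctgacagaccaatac
Gpx4: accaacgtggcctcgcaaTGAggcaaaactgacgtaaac
Gpx7: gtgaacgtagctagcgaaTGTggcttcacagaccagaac
Gpx8: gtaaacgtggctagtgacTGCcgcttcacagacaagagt

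Gpx1, Gpx3 and Gpx4 carried TGA, which the annotation marks as selenocysteine rather than a stop, at chr9:108339451-108339453 (codon 47 of 201, exon 1 of 2), chr11:54907256-54907258 (codon 73 of 226, exon 2 of 5) and chr10:80054737-80054739 (codon 129 of 253, exon 3 of 7). Gpx7 and Gpx8 carried cysteine codons on the minus strand, TGT at chr4:108403430-108403432 (codon 56 of 186, exon 2 of 3) and TGC at chr13:113045661-113045663 (codon 79 of 209, exon 2 of 3). The windows of Gpx7 and Gpx8 shared 30 of 39 bases and those of Gpx3 and Gpx7 shared 29, against 18 for Gpx1 and Gpx8.

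All 8 genes are protein coding and none shared exonic bases with another annotated gene. In GRCm38, Gpx1 (ENSMUSG00000063856) spans chr9:108338903-108340343, Gpx3 (ENSMUSG00000018339) chr11:54902453-54910377, Gpx4 (ENSMUSG00000075706) chr10:80047166-80056439, Gpx7 (ENSMUSG00000028597) chr4:108400390-108406961 and Gpx8 (ENSMUSG00000021760) chr13:113042763-113046388. Sod1 (ENSMUSG00000022982) spans chr16:90220742-90226322, Sod2 (ENSMUSG00000006818) chr17:13007839-13018119 and Cat (ENSMUSG00000027187) chr2:103453849-103485160. Their exonic lengths ran from 646 bases for Sod1 to 3824 for Sod2. A processed copy, Gpx4-ps2, matched Gpx4 at 99.7% over 762 bases and held 3.47 to 5.24% of the counts of the pair, so the split of reads between the pair is uncertain. A pseudogene of Sod1, Gm8566, matched at 97.8% over 465 bases and held 8 to 27 counts per library.

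Libraries held 7839326 to 9363442 counts in WT and 35596876 to 39192588 in ING4-/-, and Ing4 itself was counted at 247, 162 and 247 in the WT libraries (LT-HSC, ST-HSC and MPP, the order kept throughout) against 0, 24 and 76 in the ING4-/- libraries. WT libraries also carried a background, measured on 1915 olfactory and vomeronasal receptor genes at 18.3 to 22.9 counts per kb of exon, while the ING4-/- libraries held at most 0.0800 per kb. Scaled to every gene by exonic length, it would make up 22.8 to 33.7% of all WT counts. That scaling was assumed and not tested, and some genes lay under it, such as Gpx3 in WT MPPs with 7 counts against 33.1. The stem and progenitor markers Kit, Ly6a, Cd34, Slamf1, Hlf, Mecom and Procr were above the floor of 3 counts in all 6 libraries. The median of all 31001 tested genes lay at -6.85 on the log2 scale, ING4-/- minus WT. A set of 9673 genes reached 10 counts in each library (well-counted genes from here on), their median was 0.52 in the same fit, and the fold changes of the enzymes are read against it.

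Gpx1 was the most abundant enzyme transcript and the one with the largest called difference. It was counted at 5901, 7981 and 11413 in WT and at 97624, 139071 and 138738 in ING4-/-, which gave TMM-normalized levels (counts per library total scaled by edgeR, CPM) of 621, 859 and 1120 CPM in WT and 3119, 4398 and 4090 in ING4-/-. Every ING4-/- library lay above every WT library, and the log2 fold change was 2.16 (SE 0.25, edgeR quasi-likelihood test, adjusted p = 0.000657). Within populations, the log2 ratio was 2.33 for LT-HSC, 2.36 for ST-HSC and 1.87 for MPP, so the difference was of like size in the 3 pairs of libraries.

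Gpx4, the lipid hydroperoxide peroxidase, stood at 178, 156 and 166 CPM in WT and at 385, 601 and 448 CPM in ING4-/-. The groups did not overlap, and WT libraries spanned only a 1.14-fold range. Its log2 fold change was 1.52 (SE 0.21, edgeR, adjusted p = 0.000679). Together with Gpx4-ps2, the level was 164 to 186 CPM in WT and 399 to 626 CPM in ING4-/-, so the groups stayed apart when the pair was summed.

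Sod1 was the only dismutase called. WT libraries held 75.5, 46.3 and 46.1 CPM, and ING4-/- libraries held 124, 200 and 190 CPM. The groups did not overlap and the log2 fold change was 1.61 (SE 0.31, edgeR, adjusted p = 0.00254). LT-HSCs were highest among the WT libraries and lowest among the ING4-/- libraries, and the log2 ratio ran from 0.71 for LT-HSC to 2.11 for ST-HSC and 2.04 for MPP. With 1 library behind each level, this difference between populations was not tested.

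Sod2, the mitochondrial dismutase, and catalase passed the adjusted p threshold but not the fold threshold. Sod2 was at 79.8, 81.7 and 102 CPM in WT and at 159, 161 and 166 CPM in ING4-/-, the narrowest spread of any of the 8 genes among the mutant populations (1.04-fold). Its log2 fold change was 0.88 (SE 0.20, edgeR, adjusted p = 0.0054). Cat was at 121, 132 and 133 CPM in WT and at 300.0, 177 and 236 CPM in ING4-/-, with LT-HSCs highest, and its log2 fold change was 0.89 (SE 0.23, edgeR, adjusted p = 0.0116). Neither gene overlapped between genotypes, where 35.9% of well-counted genes had every ING4-/- level above every WT level, and the mutant library closest to WT for Cat was that of ST-HSCs.

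The remaining peroxidases were rare and most of their difference came from a single library. Gpx7 was counted at 57, 84 and 120 in WT against 1668, 407 and 596 in ING4-/-, or 6.00, 9.04 and 11.8 CPM against 53.3, 12.9 and 17.6 CPM, with a log2 fold change of 1.64 (SE 0.69, edgeR, adjusted p = 0.0721). The groups did not overlap, but the ratio was 8.88-fold in LT-HSCs against 1.42-fold in ST-HSCs and 1.49-fold in MPPs (18.2-fold, 2.20-fold and 1.86-fold with the background subtracted from WT). The background alone would give Gpx7 23.6 to 29.6 counts in WT, and without the ING4-/- LT-HSC library its log2 fold change was 0.80.

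Gpx3, the secreted form, was counted at 42, 27 and 7 in WT, where the background alone would give 41.0, 41.6 and 33.1 counts, so no WT library held Gpx3 clearly above it. ING4-/- LT-HSCs held 1010 counts, ST-HSCs 5 (95% Poisson interval 1.62 to 11.7) and MPPs 132, which is a 204-fold range between the first and second of these. The log2 fold change between genotypes was 2.18 with an SE of 1.59 (edgeR, adjusted p = 0.273), and without the ING4-/- LT-HSC library it was -0.37. The groups overlapped.

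Gpx8 behaved in a like manner at a lower level. It was counted at 35, 9 and 19 in WT, against a background of 23.0, 23.3 and 18.6, and at 306, 37 and 0 in ING4-/-. Against the floor of 3 counts per library, the ING4-/- MPP level was at least 111-fold lower than that of ING4-/- LT-HSCs. The groups overlapped, and the log2 fold change of 0.75 carried an SE of 1.66 (edgeR, adjusted p = 0.723). Without the ING4-/- LT-HSC library it was -1.86.

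**Figure D1:**
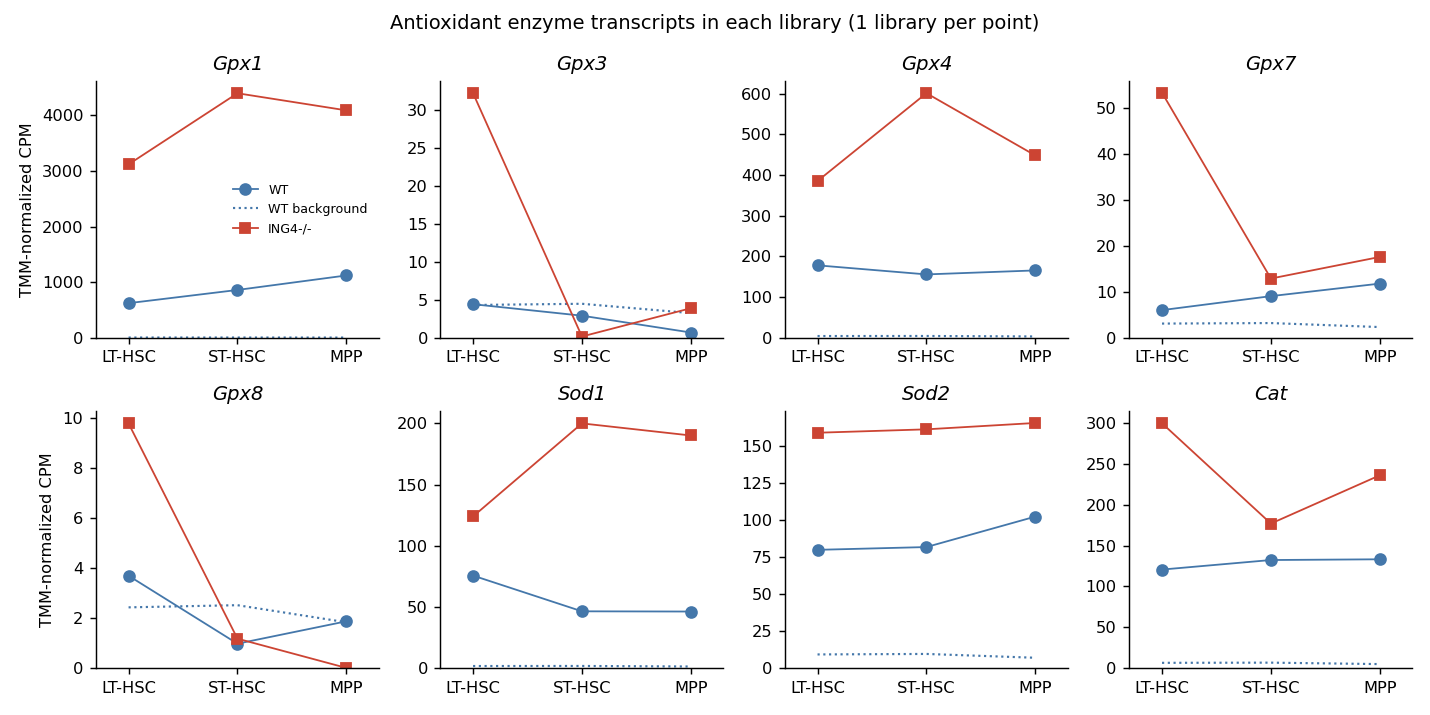
Normalized CPM (linear axes from 0) of each enzyme gene in the WT (blue circles) and ING4-/- (red squares) libraries of LT-HSCs, ST-HSCs and MPPs, 1 library per point with no error bar, and the level expected in WT from the background (dotted). The 6 genes other than Gpx3 and Gpx8 have every ING4-/- point above every WT point, as have 35.9% of the 9673 well-counted genes. Gpx3, Gpx7, Gpx8 and Cat are highest in ING4-/- LT-HSCs.

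Over the family, 3 of 8 genes were called higher in ING4-/- (Gpx1, Gpx4 and Sod1), against 7.98% of all tested genes, and none was called lower, against 56.7% of all tested genes. The median log2 fold change of the 8 was 1.57. It was 0.86 without the ING4-/- LT-HSC library, and 0.38 over 6 enzymes with the length trend removed above a minimum of 10 counts. Of the 9673 well-counted genes, 35.9% had every ING4-/- CPM above every WT CPM, as did Gpx1, Gpx4, Gpx7, Sod1, Sod2 and Cat. When only those 9673 genes were fitted, their median was 0.02, 8.29% were called higher and 936 genes were called lower. None of the 6 enzymes in that fit was called lower. The same 3 enzymes were called higher, with log2 fold changes of 1.66 for Gpx1 (edgeR, adjusted p = 0.0012), 1.01 for Gpx4 (adjusted p = 0.0102) and 1.09 for Sod1 (adjusted p = 0.0397). Sod2 and Cat each stood at 0.38 there, with adjusted p-values of 0.208 and 0.276.

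The size of these differences moved with what was taken off the WT libraries and with gene length. Subtracting the background left Gpx1 as the only call among 7 enzymes tested, at 1.35 (edgeR, adjusted p = 0.0022), where 1109 of 19672 genes were called higher. The subtraction put Gpx4 at 0.73 (edgeR, adjusted p = 0.0158) and Sod1 at 0.82 (adjusted p = 0.0652). Removing the trend on exonic length as well as genes under the minimum of 10 left none, where 450 of 9673 genes were called higher. Gpx1 was then at 1.00 (edgeR, adjusted p = 0.0108), on the threshold for fold change, and the others between 0.04 and 0.49.

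**Figure D2:**
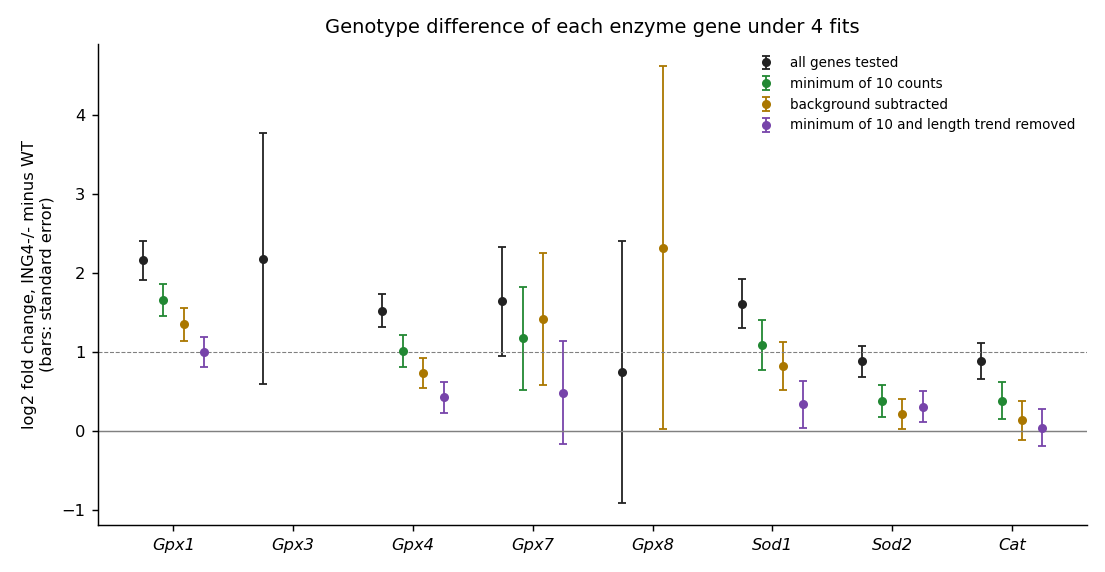
Log2 fold change (ING4-/- minus WT) of each enzyme gene with its standard error in 4 edgeR fits, with the fold threshold of 1 dashed. Gpx1 is highest in the fit of all genes among the called genes, at 2.16. It is at 1.66 with a minimum of 10 counts and at 1.00 with the length trend removed as well. Gpx3 and Gpx8 have the widest errors and no value in some fits.

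Exonic length, which the choice of genes did not use, moved with the difference between genotypes. Median log2 fold change fell with exonic length over the well-counted genes, from 1.38 at up to 1000 bases to 1.23 between 1000 and 2000, 0.83 between 2000 and 4000, 0.29 between 4000 and 8000 and -0.59 above 8000. Gpx1, with 1441 exonic bases, was above the upper quartile of its length range (1.69). Gpx4, Gpx7 and Sod1 were between the quartiles of theirs (0.68 to 1.69 for the first pair and 0.01 to 1.99 for Sod1), and so were Sod2 and Cat (0.29 to 1.27). The part of length in the differences of the enzymes was not tested beyond the fit above.

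**Figure D3:**
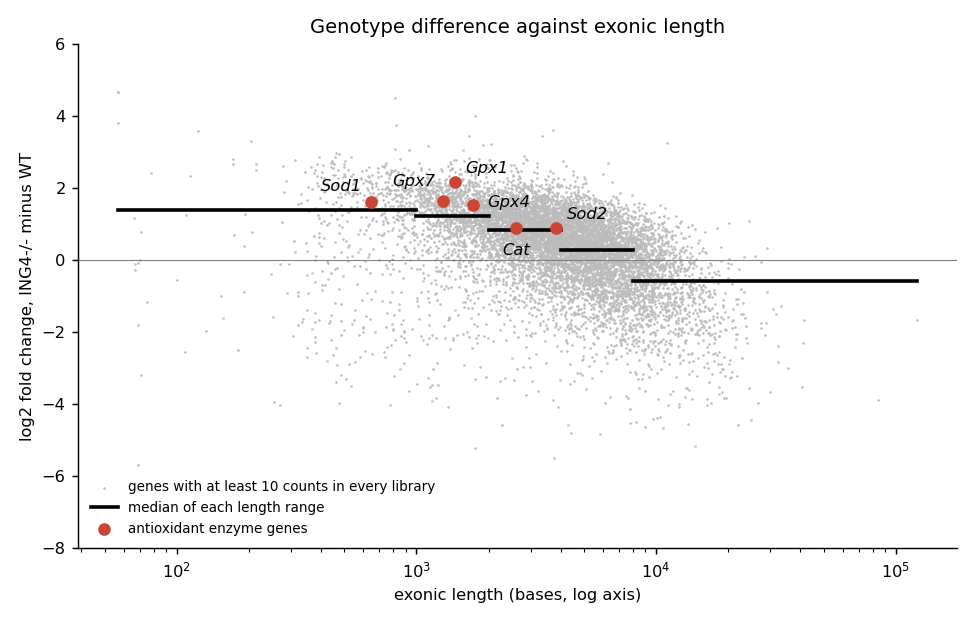
Log2 fold change (ING4-/- minus WT) against exonic length in bases (log axis) for the well-counted genes, with the median of each length range as a black line and the 6 enzyme genes with enough counts in red. Gpx1 at 2.16 lies above its range's median of 1.23, and Sod2 and Cat lie close to the median of theirs (0.83), while 7 of the 9662 genes fall outside the plotted range.

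Levels per length put Gpx1 above the other enzymes in every library. In WT, Gpx1 reached 602 ± 173 CPM per kb of exon (SD, n = 3), followed by Gpx4 at 96.5 ± 6.48 and Sod1 at 86.6 ± 26.2, which did not differ beyond their spread, and then by Cat at 49.3 ± 2.70, Sod2 at 23.0 ± 3.27, Gpx7 at 6.94 ± 2.24, Gpx8 at 2.14 ± 1.36 and Gpx3 at 1.47 ± 1.04, the last pair again within their spread. In ING4-/-, Gpx1 stood at 2685 ± 463 CPM per kb, Gpx4 at 278 ± 64.5, Sod1 at 265 ± 64.0, Cat at 91.0 ± 23.5, Sod2 at 42.4 ± 0.874, Gpx7 at 21.7 ± 17.2, Gpx3 at 6.68 ± 9.69 and Gpx8 at 3.59 ± 5.26. Gpx4 and Sod1 lay within the spread of each other here too, and Gpx7, Gpx3 and Gpx8 could not be ordered. Gpx1 made up 59.2, 71.0 and 75.2% of the length-corrected sum in WT, and 77.2, 79.7 and 80.1% in ING4-/-.

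Ratios between enzymes inside a library do not depend on how libraries are scaled. The ratio of Gpx1 to Sod2 per kb was 20.7, 27.9 and 29.0 in WT and 52.1, 72.3 and 65.5 in ING4-/-, with no overlap, nor was there any with the background taken off (at most 31.4 in WT). The ratio of Gpx1 to Cat was 9.35 to 15.2 in WT and 18.9 to 45.1 in ING4-/-. The ratio of Gpx1 to Gpx4, which are close in length, was 4.18 to 8.09 in WT and 8.75 to 10.9 in ING4-/-, also without overlap but with a narrow gap. Sod1 to Sod2 overlapped, at 2.67 to 5.6 in WT and 4.61 to 7.34 in ING4-/-. These ratios compare 3 libraries with 3 libraries and carry no test.

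**Figure D4:**
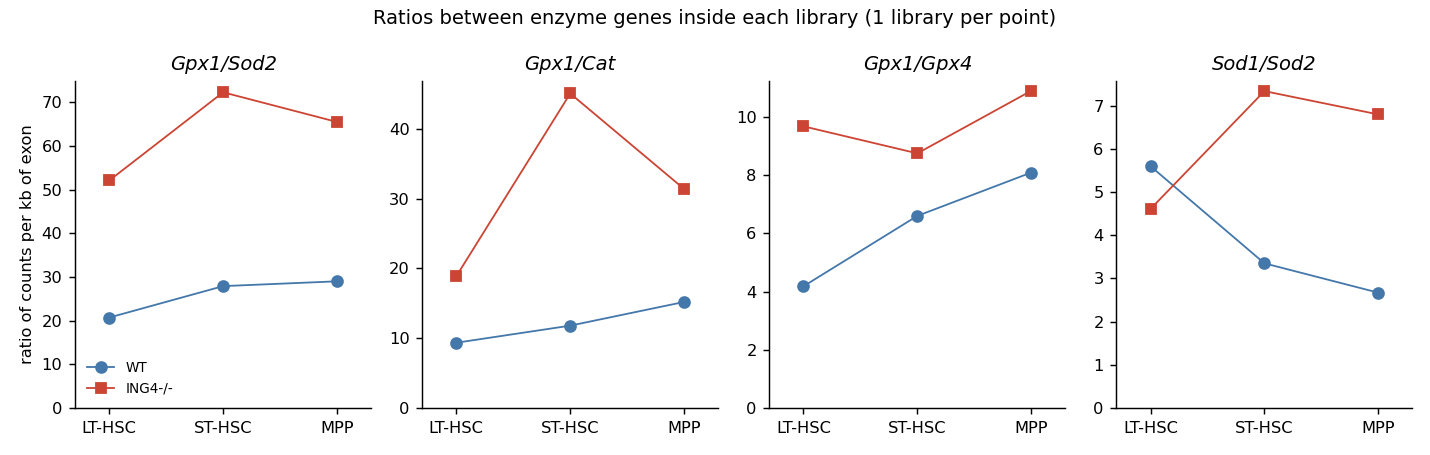
Ratio of counts per kb of exon between pairs of enzyme genes inside each library (linear axes from 0, 1 library per point, no error bar), WT as blue circles and ING4-/- as red squares, by population. Gpx1 to Sod2 separates the genotypes most widely, at up to 29.0 in WT and at least 52.1 in ING4-/-, and Sod1 to Sod2 crosses over in LT-HSCs.

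Across populations, with genotype in the model, no enzyme gene differed at the adjusted threshold. The edgeR test called 0 of 31001 genes (0.0% each) for ST-HSC minus LT-HSC, MPP minus LT-HSC and MPP minus ST-HSC, although 616, 561 and 187 genes had an unadjusted p under 0.05, and DESeq2 called 285, 435 and 168 genes, none of them an enzyme of this family. Gpx1 was nearest to a difference, with 0.48 (SE 0.17) for ST-HSC minus LT-HSC and 0.63 (SE 0.17) for MPP minus LT-HSC on the log2 scale (adjusted p = 1.0 for both). In WT it stood 1.80-fold higher in MPPs than in LT-HSCs, and in ING4-/- 1.31-fold higher. With 2 libraries per population, standard errors of the others reached 0.25 for Gpx4 and Sod2 and 3.18 for Gpx8, so moderate differences between populations were not detectable.

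In the ING4-/- libraries the enzymes fell into patterns that went separate ways from LT-HSCs to ST-HSCs. Gpx3, Gpx7, Gpx8 and Cat were lower in ST-HSCs, by 204-fold, 4.14-fold, 8.36-fold and 1.69-fold. Gpx1, Gpx4 and Sod1 were higher there, by 1.41-fold, 1.56-fold and 1.61-fold, and Sod2 was at 1.01-fold. These folds compare 1 library with another and have no replicate check.

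Among promoter windows of RefSeq (300 bases around each start, GRCm38), 11 belonged to the enzymes. The antioxidant response element core, TGACNNNGC searched on both strands, was present in 1 of them, for Sod1, against 12.4% of 32851 windows, and is shown as the only motif match in the family, in capitals and on the opposite strand, beginning 56 bases before the start.
Sod1, chr16:90220696-90220724: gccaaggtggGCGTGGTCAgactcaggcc

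The FoxO motif TGTTTAC (3.65% of all windows) and the E-box CACGTG (7.15%) matched in none of the 11 windows.

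Partner enzymes of the same pathways were examined with lists chosen by function, whose counts stand beside 7.98% of all tested genes called higher and 56.7% called lower. When only well-counted genes were fitted, the counts stand beside 8.29% called higher and 936 of 9673 genes called lower. Of 12 peroxiredoxins and thioredoxins, which also reduce peroxides, 8 were called higher and none lower in ING4-/-, among them Prdx1 at a log2 fold change of 2.02 (SE 0.20, edgeR, adjusted p = 0.000657) and Txn1 at 1.95 (SE 0.20, adjusted p = 0.000657). In the fit of well-counted genes, 5 of the 12 were called. Of 15 genes of glutathione synthesis and recycling, which supply the peroxidases with their reductant, 7 were called higher, with Glrx5 at 3.05 and Mgst3 at 2.43, and 5 of 14 in the fit of well-counted genes. Median log2 fold changes were 1.5 and 1.01 for these lists, beside the 0.52 of the 9673 genes.

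Regulators and cofactor pathways were more mixed. Of 8 genes of the Nrf2 pathway, the main inducer of antioxidant genes, 4 were called higher and led by Hmox1 (2.32), which degrades heme, and Fth1 (1.52), which stores iron, and 2 of 8 in the fit of well-counted genes. Of 7 FoxO and ATM regulators only Atm was called, and it was lower (-4.35, SE 0.82, edgeR, adjusted p = 0.00226). Atm is a long gene counted at 706 to 971 in WT and 25 to 266 in ING4-/-. Of 9 genes that make or carry selenium for selenoproteins such as Gpx1, Gpx3 and Gpx4, 3 were called higher, including Selenop (1.44), and 1 lower, Scly (-1.45), which releases selenium from selenocysteine. In the fit of well-counted genes none of 8 was called higher (Selenop 0.94, edgeR, adjusted p = 0.0564) and Scly was again lower.

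On the producing side, 2 of 8 NADPH oxidase genes were called higher, Cyba (2.02) and Rac2 (1.48), and 2 lower, while in the fit of well-counted genes 1 of 5 was higher (Cyba, 1.51) and 0 lower. Peroxisomal genes, whose import machinery carries catalase, had 2 of 8 called higher, Pex13 (1.51) and Pex2 (1.28), and 0 of 7 in the fit of well-counted genes (edgeR, adjusted p = 0.185 and 0.219 for this pair). Oxidative folding genes of the endoplasmic reticulum, the compartment of GPX7 and GPX8, had 2 of 7 called higher, P4hb (1.45) and Qsox1 (1.02), and 0 of 7 in the fit of well-counted genes (0.94 and 0.53). Among the other family members and the copper chaperone of SOD1, 3 of 4 tested were called lower, where 56.7% of all tested genes were, and none higher, and only Ccs was well counted (0.73, SE 0.45, edgeR, adjusted p = 0.2).

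Transcripts of other blood cells moved with genotype in part. Red cell precursors are rich in peroxidase and catalase transcripts, and the summed level of 11 erythroid markers was 63.8 to 225 CPM in WT, of which background gave 39.7 to 54.7, and 111 to 275 CPM in ING4-/-. Hba-a1 was counted at 11 to 21 in WT and 531 to 1812 in ING4-/-, while Alas2 and Ermap were at 0 in all 3 ING4-/- libraries. Summed granulocyte markers (9 genes) were at 107 to 335 CPM in WT and 368 to 663 in ING4-/-, with Mmp8 at 0 in all 3 ING4-/- libraries, and megakaryocyte markers (6 genes) at 258 to 399 and 281 to 1150 CPM. Macrophage markers (7 genes) summed to 65.0 to 92.9 CPM in WT, of which background gave 37.7 to 51.9, and to at most 26.9 CPM in ING4-/-. B cell markers (5 genes) summed to 75.1 to 93.7 CPM in WT and 64.6 to 112 CPM in ING4-/-, T and NK cell markers (5 genes) to 78.0 to 148 and 61.5 to 295 CPM, and stromal and endothelial markers (8 genes) to 181 to 193 and 51.9 to 73.9 CPM. In WT the background gave 37.7 to 51.8 CPM of the B cell sum, 23.4 to 32.2 of the T and NK cell sum, 101 to 140 of the stromal and endothelial sum, 27.2 to 37.4 of the granulocyte sum and 46.8 to 64.4 of the megakaryocyte sum. The part of such cells in the enzyme differences was not tested, and in bulk libraries the number of cells of a type and the RNA in each cannot be told apart.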

How the data were processed

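Sorted populations, 1 library for each genotype and population, were grouped by their labels. The authors deposited raw counts of reads per gene for each library, without normalization. A company made and sequenced the libraries and ran the first processing, and the labels give mm10 as the build. The aligner, counting program and strand setting are not given in the sources used here, so overlapping antisense transcripts cannot be told apart. Symbols, exons and lengths came from GENCODE on GRCm38, in which 49056 of 49315 identifiers were found, and sequences came from GENCODE and RefSeq.

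Genotypes were compared by the quasi-likelihood F test of edgeR 4.0.16 in R 4.3.3. Low counts were filtered with filterByExpr on genotype, libraries were scaled by TMM, and p-values were adjusted by Benjamini-Hochberg over 31001 genes, with 4 residual degrees of freedom. A call required an adjusted p under 0.05 with a log2 fold change beyond 1 in either direction. Standard errors were obtained from the size of the log2 fold change over the root of F. Populations were compared with genotype in the model. An interaction left no residual degrees of freedom. Log2 ratios within a population used a prior count of 2. DESeq2 1.42.0 was the other test, and Python 3.11.15 made the tables. Alternatives were other normalizations, filters, models and samples, background subtraction and removal of the trend on exonic length. The fits were tested on simulated counts.

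Libraries of one population deviated together from their genotype means over 9673 genes (r = 0.143, 0.110 and 0.121), so populations pair the libraries. No library duplicated another of its genotype (chi-square of at least 14.1 for each degree of freedom). A count of 0 allows 3 counts, or 0.320 to 0.383 CPM in WT and 0.0766 to 0.0843 in ING4-/- before TMM scaling. Intervals and floors cover counting error only, since reads without molecular identifiers are not independent molecules. The genes, lists and motifs were chosen with earlier results of these data known. Named genes were the 8 enzymes, Ing4, at most 2 per list by absolute log2 fold change, and the 3 genes most like each enzyme. Hba-a1 was singled out after its values were seen. Single values of some marker genes are not reported here. Flow cytometry and transplantation data were not analysed here.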

Additional observations from a re-analysis of the deposited data

Results flagged for a closer look

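Gpx3 and Gpx8 moved in opposite directions between the genotypes depending on the population, and this difference was not tested because each population had 1 library per genotype. The log2 ratio of Gpx3, ING4-/- over WT, was 2.84 for LT-HSC, -3.57 for ST-HSC and 2.35 for MPP. That of Gpx8 was 1.38 for LT-HSC, 0.25 for ST-HSC and -4.40 for MPP, the last computed at the floor of 3 counts because ING4-/- MPPs held none. The WT side of these ratios was 7 to 42 counts for Gpx3 and 9 to 35 for Gpx8, close to or under the expected background of 33.1 to 41.6 and 18.6 to 23.3 counts. Within the ING4-/- libraries alone, where the expected background was under 1 count, Gpx3 ran from 5 to 1010 counts and Gpx8 from 0 to 306.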

How the results depend on the processing

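Against 3 enzymes called by edgeR with TMM, 6 were called with upper-quartile normalization (Gpx7, Sod2 and Cat in addition), 5 by adjusted p alone, 1 with the background subtracted (Gpx1), and 0 with the length trend removed above a minimum of 10 counts. All genes called higher moved too, from 2475 of 31001 with TMM to 4556 of 31001, 1109 of 19672 and 450 of 9673 in the 3 other fits. By adjusted p alone, 20591 of 31001 genes passed in either direction. Leaving out 1 library gave 3 to 5, with 5 only without the ING4-/- ST-HSC library, where Gpx7 (2.01) and Cat (1.08) were added. In that fit 2398 of 32531 genes were called higher. In LT-HSCs and ST-HSCs alone, 2 were called, since Sod1 had an adjusted p of 0.0533 by edgeR, and 1625 of 31530 genes were called higher. Population as a replicate block left 3 called and changed no call, and turned Gpx8 to -0.75. Leaving out the ING4-/- LT-HSC library turned Gpx3 to -0.37 and Gpx8 to -1.86. Over the libraries left out in turn, Gpx3 ran from -0.37 to 2.78 and Gpx8 from -1.86 to 1.40. The cause of these changes was not tested. The other 6 genes were higher in ING4-/- in every alternative run for them. The median of the 9673 genes with enough counts moved from 0.52 with TMM to 1.12 with upper-quartile normalization and 0.17 with DESeq2's size factors. Population comparisons called 0 enzymes in each alternative. Background subtraction gave no value for Gpx3, and Gpx3 and Gpx8 had none above the minimum of 10. At the WT depth, enzymes under about 40 counts could not be told from background.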

Other observations

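Outside the family, the genes whose log2 CPM ran most closely with each well-counted enzyme over the 6 libraries were listed among 9672 genes. These correlations rest on 6 points that share libraries and the difference between the genotypes, and they are given as descriptions. For Gpx1 they were Gm9385 and Nme2 (r = 0.9993 for both) and Ywhaq (0.9992), for Gpx4 Hsd17b4 (0.9973), Tmem258 (0.9970) and Dynlt1b (0.9968), and for Sod1 Diablo (0.9949), Nt5dc1 (0.9948) and Bnip2 (0.9916). Hsd17b4 is a peroxisomal enzyme of fatty acid oxidation, and Diablo is a mitochondrial protein that promotes apoptosis. For Gpx7 they were Mrpl47 (0.9895), Parn (0.9831) and Cyp51 (0.9821), and for Cat Htra2 (0.9960), Bst2 (0.9944) and 1110065P20Rik (0.9942). Those of Sod2 were Bola1 (0.9988), Ninj1 (0.9987) and Gm9794 (0.9986). Within the family the closest pairs were Gpx1 with Sod2 (0.987), Gpx4 with Sod1 (0.966) and Gpx1 with Gpx4 (0.954), Cat was closest to Gpx7 (0.931), and the least alike were Gpx7 with Sod1 (0.438).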
